A study of Mus musculus with 12 samples.

Results

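The Slc25 genes encode the mitochondrial carrier family, and their RNA was read in 12 poly(A) libraries of mouse liver. Members were taken by symbol, Slc25a followed by a number, which 47 of the 23420 genes of each table matched. Of these, 40 had a mean of at least 10 counts over the 12 libraries and were kept, and 7 were not. Slc25a41 and Slc25a54 had no count in any library, and Slc25a2, Slc25a18, Slc25a31, Slc25a43 and Slc25a53 lay below the minimum. Slc25a53 stood just below it with a mean of 9.75 counts, and Slc25a27, with 22.8, had the lowest mean of the kept members. All 40 kept members passed edgeR's filter on low counts in each comparison.

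Mitochondrial carriers are small proteins of the inner mitochondrial membrane that exchange, for the most part, a metabolite of the matrix for one of the cytosol. In liver they link the compartments of the urea cycle, of gluconeogenesis, of fatty acid oxidation and of cofactor supply, and they bring ADP and phosphate to the ATP synthase. Most reach the membrane through the TIM22 import complex. p62, encoded by Sqstm1, is an adaptor of selective autophagy that binds KEAP1, and TSC1, with TSC2, holds back the kinase mTORC1, a driver of growth and of mitochondrial gene expression.

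Each of the 4 groups had 3 libraries, all from liver on a C57BL/6 background. p62F/F mice carried floxed Sqstm1 and no Cre. p62Δhep mice carried the same alleles with an albumin-promoter Cre transgene, expressed in hepatocytes. Tsc1Δhep mice carried floxed Tsc1 with Cre, and Tsc1/p62Δhep mice carried both floxed genes with albumin-Cre. Whole liver was sampled, so other liver cells kept the genes, and fewer cells of a type cannot be told apart from less RNA per cell. The labels give neither age nor diet for a sample, do not say whether the tissue held tumour (the name of the deposited table that holds the Tsc1Δhep libraries has the word normal in it, unexplained), and do not state that libraries came from separate animals. The p-values therefore measure the spread between these libraries, which may be technical. p62F/F and p62Δhep were deposited in 1 table, and Tsc1Δhep and Tsc1/p62Δhep in another.

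Library totals were 15792048 to 33377247 counts. Sqstm1 stood at 315 to 351 CPM (counts relative to the scaled library size) in p62F/F and 788 CPM or more in Tsc1Δhep, and at 12.4 to 19.8 CPM in the 6 p62-deleted libraries. Tsc1 was at 5.39 to 13.7 CPM in the libraries with deleted Tsc1 and 26.0 to 39.7 CPM in the rest. The 6 hepatocyte markers summed to 25718 CPM or more in every library. The 40 carriers took 0.296% to 0.396% of the counts in p62F/F and p62Δhep, 0.426% to 0.444% in Tsc1Δhep and 0.458% to 0.481% in Tsc1/p62Δhep. Levels set side by side across the tables were not tested.

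Compared per kilobase of transcript, on library totals, Slc25a5 had the highest level of the family in every group. It encodes the ADP/ATP carrier of most dividing and liver cells. Slc25a5 averaged 305 ± 51.1 CPM per kilobase in p62F/F, 276 ± 48.1 in p62Δhep, 483 ± 64.1 in Tsc1Δhep and 425 ± 79.0 in Tsc1/p62Δhep (SD, n = 3). In p62F/F it was followed by Slc25a47, a liver-restricted carrier, at 150 ± 20.7, by the phosphate carrier gene Slc25a3 at 144 ± 9.73 and by Slc25a39, which serves mitochondrial glutathione, at 133 ± 1.70 CPM per kilobase. The spreads of these 3 overlapped. Slc25a4, the ADP/ATP carrier gene of heart and muscle, ranked 30 of 40 in p62F/F at 2.83 CPM per kilobase and 5 of 40 in Tsc1Δhep at 142 CPM per kilobase. Slc25a27 and Slc25a36 were the lowest members in p62F/F, at 0.438 and 0.399 CPM per kilobase.

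**Figure D1:**
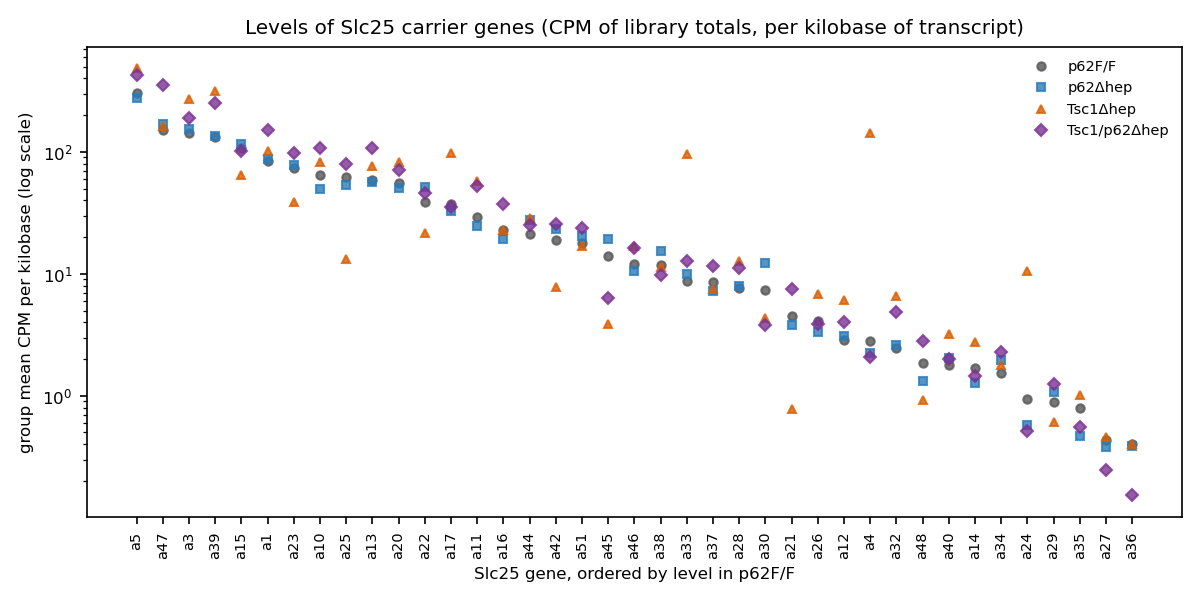
Group mean level of 39 of the 40 kept Slc25 genes in CPM of library totals per kilobase of transcript (log axis), ordered by level in p62F/F, with 1 symbol for each of the 4 groups (n = 3 libraries each). Slc25a5 is at the left in all groups, and the Tsc1Δhep symbols of Slc25a4, Slc25a33 and Slc25a24 lie far above those of the other 3 groups.

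The first comparison asked what deletion of p62 did to carrier RNA where Tsc1 was intact. No carrier gene passed the threshold, a Benjamini-Hochberg adjusted p below 0.05 over 12567 genes in the quasi-likelihood test of edgeR. Of the 40 members 0 were higher and 0 lower, against 0% higher and 0.0159% lower (2 genes) of all genes tested. DESeq2 and limma also called 0 members, and at an unadjusted p below 0.05 there were 5 members, where 8.12% of all genes passed that mark. The members' median log2 fold change was 0.04, against 0.00 for all genes, with 21 above and 19 below zero. Only p62F/F lacked Cre, so the deletion of p62 and the presence of Cre cannot be told apart here.

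The smallest p belonged to Slc25a38, the mitochondrial glycine carrier that feeds haem synthesis. Slc25a38 was at 21.6, 19.8 and 21.2 CPM in p62F/F libraries 1 to 3 and at 25.9, 25.8 and 30.8 CPM in p62Δhep. All p62Δhep libraries lay above all p62F/F libraries, but the log2 difference of 0.40 ± 0.12 (SE) had an adjusted p of 0.448 by edgeR. Slc25a24, a calcium-regulated carrier of ATP-Mg and phosphate, was at 2.67, 3.80 and 3.03 CPM in p62F/F and 2.16, 1.89 and 1.84 CPM in p62Δhep. These groups did not overlap either, with a log2 difference of -0.69 ± 0.25 and an adjusted p of 0.544 by edgeR. Slc25a44, a carrier of branched-chain amino acids, was the third by p at a log2 difference of 0.38 ± 0.16 (edgeR, adjusted p = 0.613).

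Between p62F/F and p62Δhep, 3 members were non-overlapping with p62Δhep higher and 5 with p62Δhep lower. Over all genes 6.17% did not overlap upward and 6.65% downward. The 95% intervals of the log2 difference ran from -0.48 to 0.23 for Slc25a5, from -0.20 to 0.40 for Slc25a3, from -0.33 to 0.40 for Slc25a39 and from -0.31 to 0.42 for the citrate carrier gene Slc25a1. They were wider for other abundant carriers, from -0.56 to 0.81 for Slc25a15, from -0.80 to 0.50 for Slc25a20, from -1.08 to 0.33 for Slc25a10 and from -1.58 to 1.01 for Slc25a25. The p62F/F libraries of Slc25a25 stood at 414, 74.4 and 149 CPM and those of p62Δhep at 209, 185 and 130 CPM. Without p62F/F library 1 its log2 difference turned from -0.28 to 0.65, past the threshold in neither fit.

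The second comparison asked what deletion of p62 did where Tsc1 was already deleted, with Cre in both groups. Here 17 of the 40 carriers passed the threshold, 13 of them higher in Tsc1/p62Δhep than in Tsc1Δhep and 4 lower. Of all 12620 genes tested 9.25% were higher and 14.9% lower, 24.2% in either direction, whereas 42.5% of the members were called. The members' median log2 fold change was 0.20 and that of all genes -0.05. With libraries scaled by their totals in place of TMM, the median of all genes moved to -0.40 and that of the members to -0.16, and 5 members were higher and 6 lower. The split of higher against lower calls thus depended on the scaling, as TMM factors were 1.06 to 1.22 in Tsc1Δhep and 0.866 to 0.898 in Tsc1/p62Δhep. How many of all genes passed on library totals is not given here, so those counts do not set the carriers apart from other genes.

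By either scaling Slc25a21, Slc25a25, Slc25a47, Slc25a16 and Slc25a22 were called higher and Slc25a4, Slc25a24, Slc25a33 and Slc25a17 lower. The groups did not overlap for 18 members with Tsc1/p62Δhep higher and 5 with it lower, against 22.3% and 23.4% of all genes. The counts also depended on single libraries. How many of all genes passed in these fits is not given here, so the counts do not set the carriers apart from other genes. Without Tsc1Δhep library 2 there were 4 members higher and 2 lower, without Tsc1/p62Δhep library 1 or library 2 there were 4 and 1, and without its library 3 there were 5 and 2. Slc25a21, Slc25a4, Slc25a25, Slc25a47 and Slc25a16 were called in each of the 15 alternative fits, and no called member changed direction in any of them. Of the other 12, Slc25a24 lost its call without Tsc1/p62Δhep library 1 or library 2, and Slc25a48 without either of these or Tsc1Δhep library 2. The remaining 10 each lost theirs without Tsc1Δhep library 2 and without any 1 library of Tsc1/p62Δhep.

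**Figure D2:**
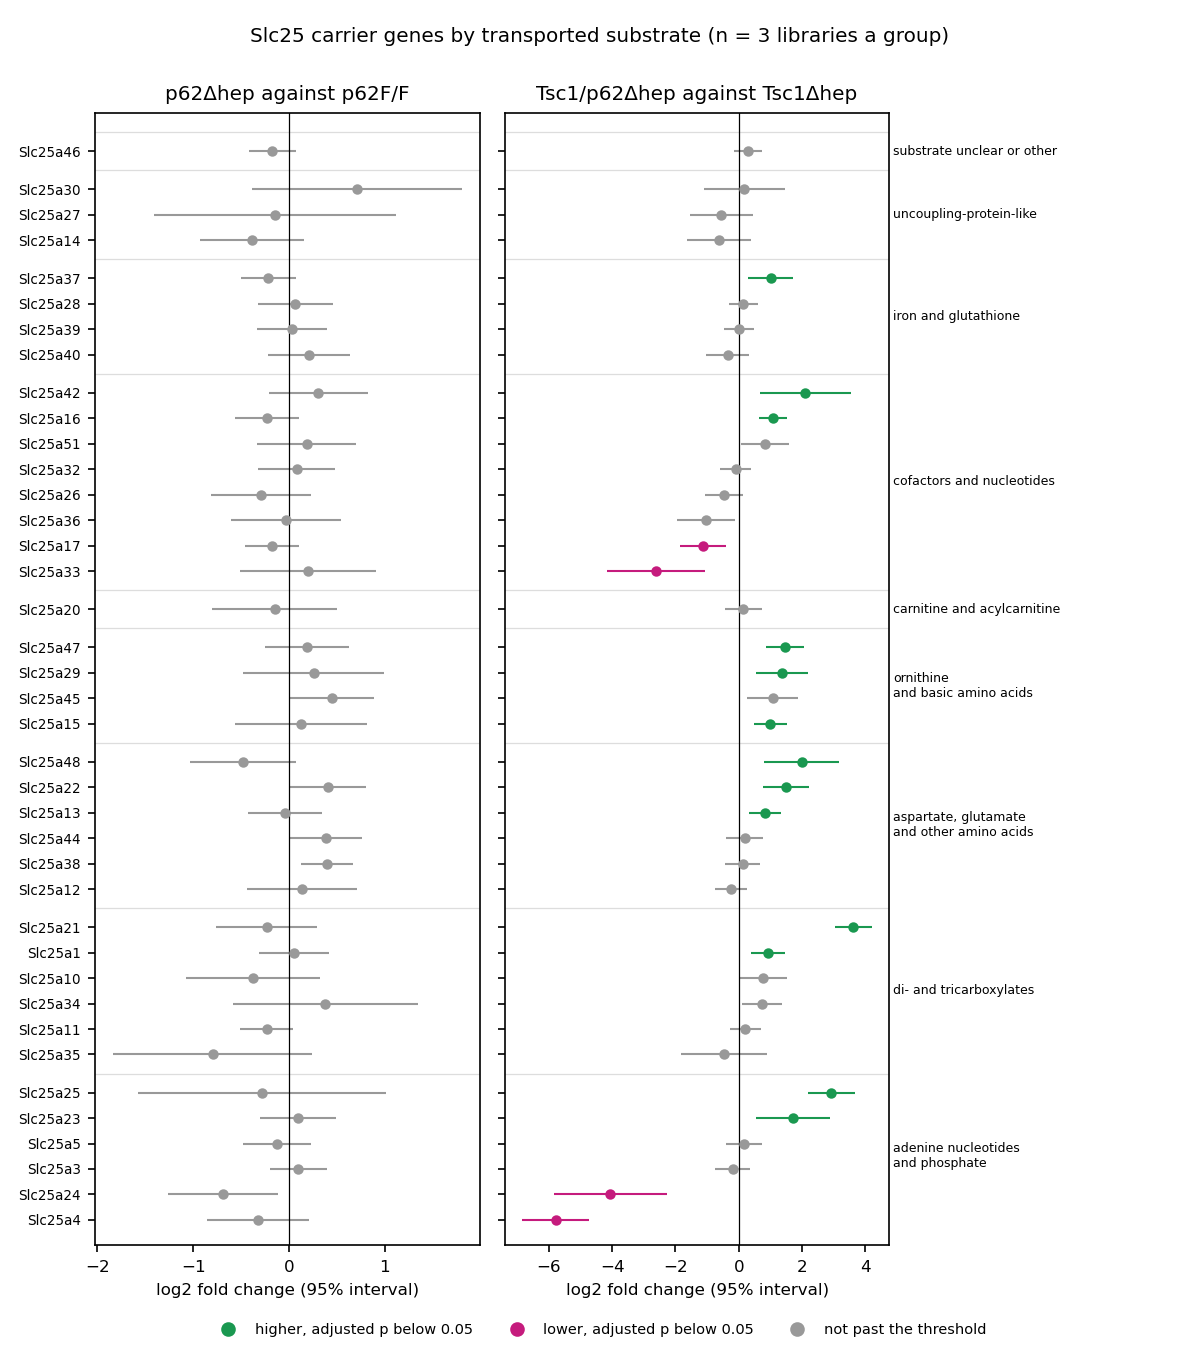
Log2 fold change with its 95% interval for 39 of the 40 kept Slc25 genes, grouped by transported substrate, for p62Δhep against p62F/F (left) and Tsc1/p62Δhep against Tsc1Δhep (right; the 2 panels have different axis ranges). Green marks genes higher and magenta genes lower at an adjusted p below 0.05, and grey marks the rest; all 39 are grey at left, 13 are green and 4 magenta at right.

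Among the carriers of adenine nucleotides and phosphate, 2 of 6 members rose and 2 fell. Slc25a4 (GRCm38 chr8:46206797-46211284, minus strand) had the largest fall of the family. Tsc1Δhep libraries 1 to 3 held 363, 250 and 131 CPM of it, and those of Tsc1/p62Δhep 4.52, 3.67 and 5.38 CPM. Every Tsc1Δhep library was far above every Tsc1/p62Δhep library, and the latter lay in the range of p62F/F (4.57, 5.77 and 5.74 CPM) and p62Δhep (4.48, 5.06 and 3.35 CPM) as scaled within their own table. Slc25a4 was 54.8-fold lower in Tsc1/p62Δhep, a log2 difference of -5.78 ± 0.45 (SE; edgeR, adjusted p = 0.000581).

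Slc25a5, its liver counterpart, did not pass the threshold. It was at 492, 616 and 487 CPM in Tsc1Δhep and 502, 551 and 737 CPM in Tsc1/p62Δhep, and the groups overlapped. Its log2 difference of 0.17 ± 0.25 had an edgeR adjusted p of 0.640, and the 95% interval ran from -0.41 to 0.74. Per kilobase, Slc25a4 made up 32.2%, 20.7% and 14.8% of the RNA of this gene pair in Tsc1Δhep libraries 1 to 3. That share was 0.830% to 1.04% in p62F/F, 0.639% to 1.03% in p62Δhep and 0.427% to 0.576% in Tsc1/p62Δhep. Reads of these near-identical genes and of their pseudogenes may be split between them by the counting, which no source used here describes. Slc25a3, whose product imports the phosphate for ATP synthesis, also overlapped, at 307 to 441 CPM in Tsc1Δhep and 306 to 388 CPM in Tsc1/p62Δhep (log2 difference -0.19 ± 0.24; edgeR, adjusted p = 0.587).

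The 3 measured genes for calcium-regulated ATP-Mg/phosphate carriers moved in opposite directions. Slc25a24 (chr3:109123149-109168457, plus strand) was at 73.1, 16.9 and 10.6 CPM in Tsc1Δhep and 1.76, 1.70 and 2.53 CPM in Tsc1/p62Δhep, 16.7-fold lower (log2 difference -4.06 ± 0.77; edgeR, adjusted p = 0.00973). Slc25a25 (chr2:32414487-32451445, minus strand) was at 24.9, 53.7 and 37.3 CPM in Tsc1Δhep and 326, 265 and 288 CPM in Tsc1/p62Δhep, 7.58-fold higher (log2 difference 2.92 ± 0.32; edgeR, adjusted p = 0.00161). Slc25a23 (chr17:57043711-57059863, minus strand) rose 3.29-fold, from 38.7, 110 and 187 CPM to 329, 391 and 382 CPM (log2 difference 1.72 ± 0.51; edgeR, adjusted p = 0.0446). None of these 3 genes overlapped between the groups. Of their summed RNA per kilobase, Slc25a24 held 52.8%, 9.14% and 4.42% in Tsc1Δhep libraries 1 to 3 and 0.252% to 1.25% in the other 9 libraries. Without Tsc1Δhep library 1 the log2 difference of Slc25a24 was -2.77, and without Tsc1Δhep library 3 that of Slc25a23 was 2.32. An exon of Slc25a25 overlaps Naif1 and one of Slc25a23 overlaps Gm17168, both on the opposite strand, and the sources used here do not say whether counting used strand. Among the other called members Slc25a21, Slc25a33 (with Gm13068) and Slc25a37 (with Gm27223) also have such an overlap.

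**Figure D3:**
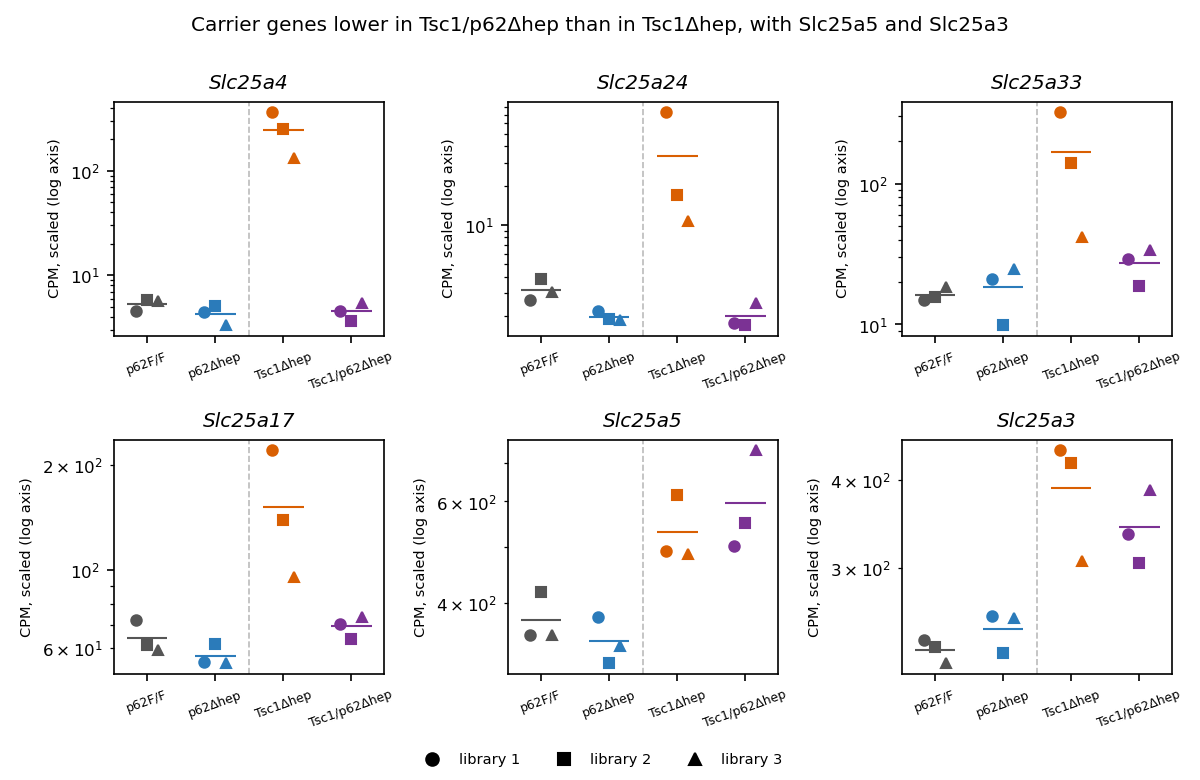
Level in each library (CPM scaled within its table, log axis) of the 4 Slc25 genes lower in Tsc1/p62Δhep than in Tsc1Δhep, with Slc25a5 and Slc25a3 for comparison; bars are group means, symbols are libraries 1 to 3, and the dashed line separates the 2 tables. Slc25a4 lies at 131 to 363 CPM in Tsc1Δhep and below 6 CPM elsewhere, whereas Slc25a5 overlaps between Tsc1Δhep and Tsc1/p62Δhep.

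**Figure D4:**
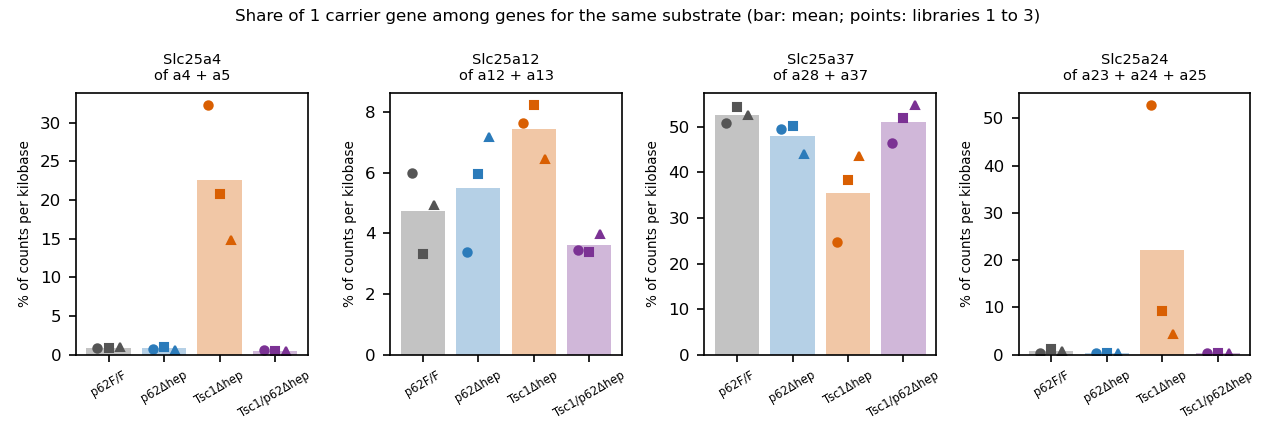
Share of 1 Slc25 gene in the summed RNA of genes for the same substrate, as % of counts per kilobase, in each library (symbols, libraries 1 to 3) with the group mean (bars from 0), for Slc25a4, Slc25a12, Slc25a37 and Slc25a24. The Slc25a4 share is 14.8% to 32.2% in Tsc1Δhep and at most 1.04% in the other groups, and the Slc25a24 share is 52.8% in Tsc1Δhep library 1.

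Among the carriers of di- and tricarboxylates, 2 of 6 members rose and none fell. Slc25a21 (chr12:56712634-57197472, minus strand) carries 2-oxodicarboxylates such as 2-oxoadipate of lysine and tryptophan breakdown. Its RNA read 1.52, 2.06 and 1.83 CPM in Tsc1Δhep but 20.8, 23.1 and 22.8 CPM in Tsc1/p62Δhep. Both groups were tight and far apart, 12.3-fold, with a log2 difference of 3.62 ± 0.25 and the smallest p of the family (edgeR, adjusted p = 0.000497). In p62F/F it was at 10.4, 14.2 and 9.90 CPM and in p62Δhep at 12.6, 7.98 and 8.88 CPM, so its Tsc1Δhep levels were the low ones of the 4 groups. An exon of Slc25a21 overlaps Pax9 on the opposite strand.

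The citrate carrier gene Slc25a1 (chr16:17925223-17928219, minus strand), whose product supplies cytosolic citrate for lipid synthesis, rose 1.90-fold. It was at 121, 152 and 170 CPM in Tsc1Δhep and 260, 324 and 259 CPM in Tsc1/p62Δhep (log2 difference 0.93 ± 0.23; edgeR, adjusted p = 0.0251). Slc25a10, for the dicarboxylate carrier, was at 85.6, 148 and 201 CPM against 232, 223 and 289 CPM, without overlap. Its log2 difference of 0.77 ± 0.33 did not pass (edgeR, adjusted p = 0.120). Slc25a11, for the malate/2-oxoglutarate carrier of the malate-aspartate shuttle, was at 86.0 to 90.7 CPM against 84.8 to 124 CPM, with a log2 difference of 0.21 ± 0.21 (edgeR, adjusted p = 0.481).

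Of the 6 members grouped as carriers of aspartate, glutamate and other amino acids, 3 rose and none fell. Slc25a48, 1 of the 3, is listed with this set although it is linked to choline. Slc25a13 (chr6:6041218-6217173, minus strand) encodes citrin, the liver's aspartate/glutamate carrier, which feeds aspartate to the urea cycle. Its levels of 176, 215 and 240 CPM in Tsc1Δhep and 389, 350 and 394 CPM in Tsc1/p62Δhep differed 1.79-fold (log2 0.84 ± 0.22; edgeR, adjusted p = 0.0292). Slc25a12, the gene of the same carrier activity in brain and muscle, was at 29.7, 39.2 and 33.8 CPM and at 28.4, 24.9 and 33.2 CPM. Those groups overlapped, with a log2 difference of -0.25 ± 0.21 (edgeR, adjusted p = 0.413). Slc25a12 held 6.47% to 8.22% of the RNA per kilobase of this pair in Tsc1Δhep and 3.37% to 3.98% in Tsc1/p62Δhep. In p62F/F and p62Δhep the share was 3.33% to 7.17%.

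Slc25a22 (chr7:141429744-141437892, minus strand), a glutamate carrier gene, was at 36.2, 43.5 and 77.8 CPM in Tsc1Δhep and 139, 139 and 163 CPM in Tsc1/p62Δhep. It rose 2.80-fold (log2 difference 1.49 ± 0.31; edgeR, adjusted p = 0.0145). Slc25a48 (chr13:56438355-56474239, plus strand), a carrier gene linked to mitochondrial choline, rose 3.96-fold from 1.04, 3.25 and 3.75 CPM to 14.6, 9.95 and 7.39 CPM (log2 difference 1.99 ± 0.51; edgeR, adjusted p = 0.0274). Both were without overlap. Slc25a38 and Slc25a44, which had the small p-values in the first comparison, overlapped here, with log2 differences of 0.13 ± 0.24 and 0.19 ± 0.26 (edgeR, adjusted p = 0.718 and 0.615).

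All 4 kept members grouped as carriers of ornithine and basic amino acids had Tsc1/p62Δhep above Tsc1Δhep without overlap, and 3 of the 4 passed the threshold. Slc25a15 (chr8:22375551-22398597, minus strand) encodes the ornithine/citrulline carrier of the urea cycle. It was at 232, 187 and 171 CPM in Tsc1Δhep and 427, 339 and 414 CPM in Tsc1/p62Δhep, 2.00-fold higher (log2 difference 1.00 ± 0.23; edgeR, adjusted p = 0.0191). In p62F/F and p62Δhep it ranged from 241 to 525 CPM, a range that holds the Tsc1/p62Δhep levels. Slc25a29 (chr12:108825873-108835883, minus strand), for a carrier of arginine and lysine, was low in all groups. It stood at 0.866, 1.33 and 0.985 CPM against 2.96, 2.55 and 2.79 CPM and rose 2.59-fold (log2 difference 1.37 ± 0.36; edgeR, adjusted p = 0.0291).

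Slc25a47 (chr12:108836046-108856815, plus strand), the liver-restricted carrier gene, is listed with this set although its substrate is less settled. It was at 270, 177 and 234 CPM in Tsc1Δhep and 687, 658 and 521 CPM in Tsc1/p62Δhep, 2.74-fold higher (log2 difference 1.45 ± 0.26; edgeR, adjusted p = 0.00750). Its p62F/F levels of 217, 246 and 238 CPM and p62Δhep levels of 314, 202 and 286 CPM overlapped the Tsc1Δhep ones, and all of these lay below the Tsc1/p62Δhep levels. Slc25a45 had a log2 difference of 1.07 ± 0.35 and an edgeR adjusted p of 0.0598. Slc25a29 and Slc25a47 are neighbours on opposite strands, with 162 bases between their annotated ends. Slc25a41, 2056 bases from Slc25a23, and Slc25a54, 6461 bases from Slc25a24, had no count, and Slc25a43, 18448 bases from Slc25a5, lay below the count minimum.

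**Figure D5:**
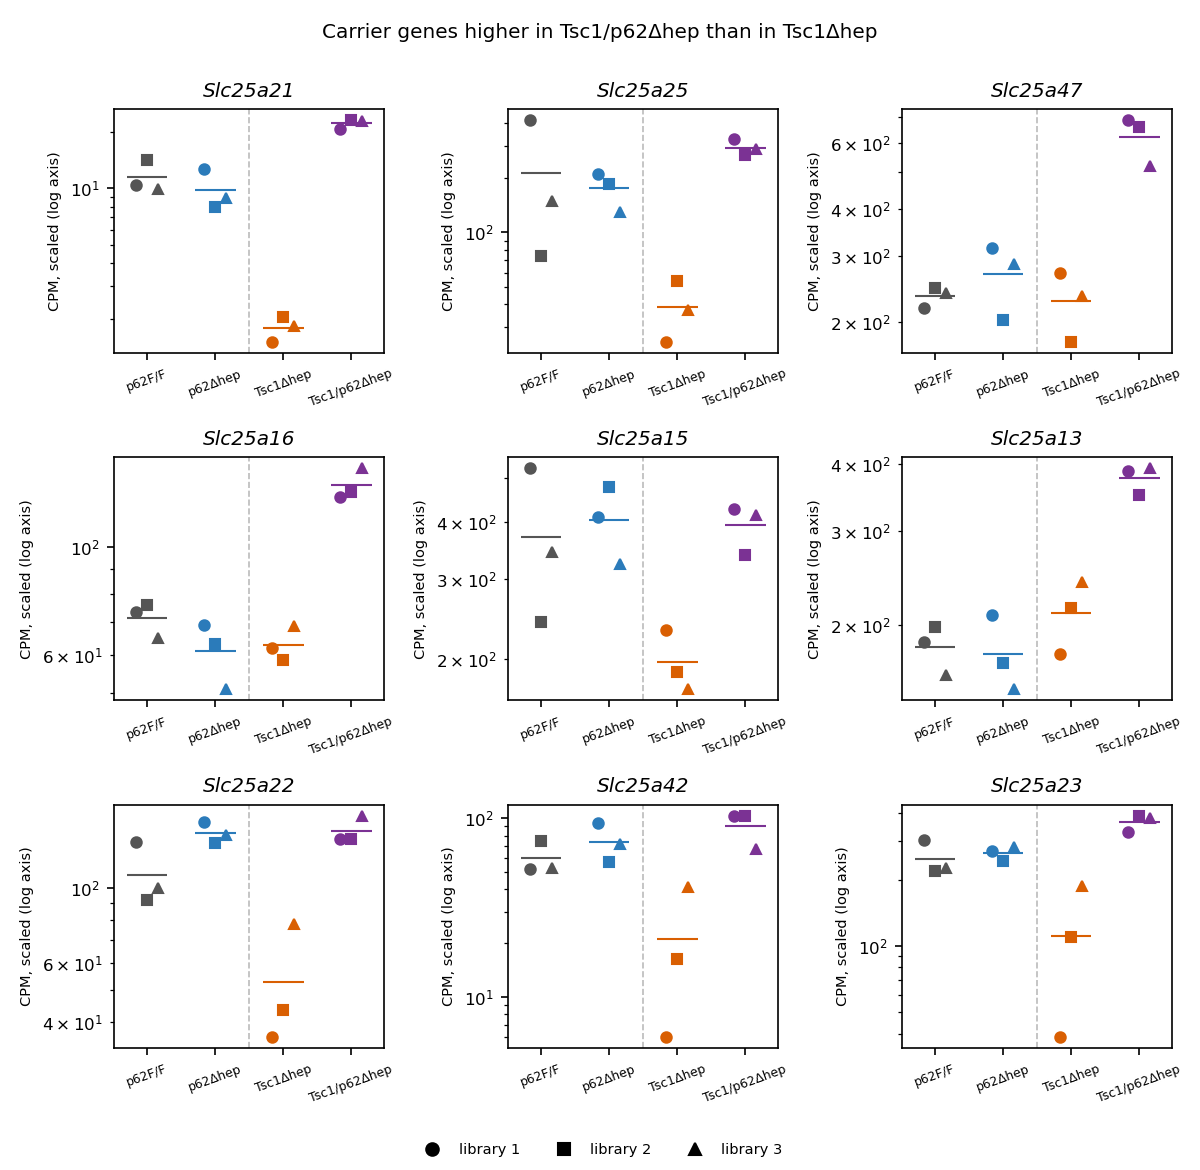
Level in each library (CPM scaled within its table, log axis) of 9 of the 13 Slc25 genes higher in Tsc1/p62Δhep than in Tsc1Δhep; bars are group means, symbols are libraries 1 to 3, and the dashed line separates the 2 tables. The Tsc1Δhep libraries of Slc25a21 lie at 1.52 to 2.06 CPM, below the other 3 groups, whereas those of Slc25a47 lie beside p62F/F and p62Δhep and below Tsc1/p62Δhep.

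With 17 members called, the RefSeq promoter windows (GRCm38.p6, the 250 bases before each start) were searched on both strands for 6 motifs. The table held windows for 31 of the 40 members, 40 windows in all, and 32851 windows over all genes. CCAAT, the box bound by NF-Y, was in 50% of member windows and 33.9% of all windows, and in a window of 9 of 12 higher, 3 of 4 lower and 5 of 15 uncalled members. GGGCGG, the SP1 box, was in 72.5% against 32.7%, and in a window of 8 of 12 higher, 3 of 4 lower and 12 of 15 uncalled members. CACGTG, the E-box of MYC and TFE factors, was in 17.5% against 6.02%, and among called members in Slc25a1, Slc25a13, Slc25a15 and Slc25a33. By call, 3 of 12 higher, 1 of 4 lower and 2 of 15 uncalled members had it. TGACNNNGC, the core of the antioxidant response element bound by NRF2, was in 22.5% against 10.2%, and among called members in Slc25a23, Slc25a25 and Slc25a33. By call, 2 of 12 higher, 1 of 4 lower and 4 of 15 uncalled members had it. The NRF1 motif was in 2.5% against 3.74%, and AAGGTCA, for oestrogen-related receptors, in 2.5% against 4.08%. A match describes letters only, and no binding was measured.

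The windows of Slc25a25, Slc25a47 and Slc25a16, 3 of the genes called higher in each alternative fit, are shown. Capitals mark motif matches, read 5′ to 3′ on the gene's strand. The Slc25a25 window is the most upstream of its 3 (chr2:32451471-32451720, minus strand). It holds 3 CCAAT boxes (as CCAAT or ATTGG), 2 TGACNNNGC matches and a GGGCGG match that overlaps one of them. The Slc25a47 window (chr12:108850879-108851128, plus strand) holds 1 CCAAT box as ATTGG. It lies inside the annotated span of the gene (chr12:108836046-108856815) and not before it. The Slc25a16 window (chr10:62920383-62920632, plus strand) holds none of the 6 motifs.
Slc25a25: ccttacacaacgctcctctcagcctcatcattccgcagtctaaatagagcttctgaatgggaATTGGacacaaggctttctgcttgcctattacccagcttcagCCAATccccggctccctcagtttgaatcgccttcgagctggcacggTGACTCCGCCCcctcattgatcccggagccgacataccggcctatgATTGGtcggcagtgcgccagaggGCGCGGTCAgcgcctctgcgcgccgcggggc
Slc25a47: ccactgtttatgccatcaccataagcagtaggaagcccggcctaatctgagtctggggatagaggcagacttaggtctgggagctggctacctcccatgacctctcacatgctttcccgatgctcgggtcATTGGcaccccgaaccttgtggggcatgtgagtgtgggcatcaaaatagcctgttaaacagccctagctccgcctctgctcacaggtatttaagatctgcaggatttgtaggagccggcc
Slc25a16: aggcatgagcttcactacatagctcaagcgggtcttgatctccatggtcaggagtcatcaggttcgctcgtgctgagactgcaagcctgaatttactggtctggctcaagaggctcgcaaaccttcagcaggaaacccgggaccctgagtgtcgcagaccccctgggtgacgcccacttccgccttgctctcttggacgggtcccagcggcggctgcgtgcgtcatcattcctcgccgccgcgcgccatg

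Of the 9 carriers of cofactors and nucleotides, 2 rose and 2 fell. Slc25a16 (chr10:62920633-62946498, plus strand), linked to coenzyme A supply, was at 61.8, 58.5 and 68.6 CPM in Tsc1Δhep and 126, 129 and 145 CPM in Tsc1/p62Δhep. The groups were tight and 2.12-fold apart (log2 difference 1.09 ± 0.19; edgeR, adjusted p = 0.00755). Slc25a42 (chr8:70184340-70212305, minus strand), the gene of the mitochondrial coenzyme A carrier, rose 4.31-fold, from 5.97, 16.4 and 41.1 CPM to 102, 103 and 67.3 CPM (log2 difference 2.11 ± 0.62; edgeR, adjusted p = 0.0443). Its Tsc1Δhep libraries differed widely, and without library 3 of them the log2 difference of Slc25a42 was 3.03.

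The fallen members of this set were Slc25a33 and Slc25a17. Slc25a33 (chr4:149744036-149774277, minus strand) encodes a pyrimidine nucleotide carrier that responds to growth signals. It was at 321, 140 and 41.9 CPM in Tsc1Δhep and 29.1, 18.7 and 33.9 CPM in Tsc1/p62Δhep, 6.15-fold lower (log2 difference -2.62 ± 0.67; edgeR, adjusted p = 0.0278). Slc25a17 (chr15:81318911-81360812, minus strand), a carrier of coenzyme A and other cofactors in peroxisomes, was at 220, 139 and 95.8 CPM against 70.5, 63.7 and 73.4 CPM. It was 2.19-fold lower (log2 difference -1.13 ± 0.31; edgeR, adjusted p = 0.0367). For both genes library 1 was the highest and library 3 the lowest of Tsc1Δhep, and without library 1 the log2 difference of Slc25a33 was -1.73. Slc25a36, the other pyrimidine nucleotide carrier gene, had a log2 difference of -1.03 ± 0.39 without passing (edgeR, adjusted p = 0.0928). Slc25a26 (S-adenosylmethionine), Slc25a32 (folate) and Slc25a51 (NAD) did not pass, with log2 differences from -0.47 to 0.83.

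Of the 4 iron and glutathione carriers, Slc25a37 alone passed. Slc25a37 (chr14:69241848-69285112, minus strand) and Slc25a28 encode the mitoferrins, which import iron. Slc25a37 was at 16.2, 28.4 and 36.7 CPM in Tsc1Δhep and 49.97, 56.0 and 58.2 CPM in Tsc1/p62Δhep, 2.02-fold higher (log2 difference 1.01 ± 0.31; edgeR, adjusted p = 0.0476). Slc25a28 overlapped, at 16.8 to 18.1 CPM against 17.7 to 21.2 CPM (log2 difference 0.15 ± 0.20; edgeR, adjusted p = 0.611). The Slc25a37 share of mitoferrin RNA per kilobase was 24.8%, 38.3% and 43.6% in Tsc1Δhep and 44.1% to 54.7% in the other groups. Slc25a39 was the nearest of the family to no difference, at 443 to 491 CPM against 456 to 497 CPM (log2 difference 0.01 ± 0.20, 95% interval from -0.46 to 0.48).

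The carnitine/acylcarnitine carrier gene Slc25a20, which passes long-chain fatty acids to oxidation, did not pass. It was at 119, 144 and 124 CPM in Tsc1Δhep and 121, 118 and 189 CPM in Tsc1/p62Δhep (log2 difference 0.15 ± 0.25; edgeR, adjusted p = 0.690). Of the 3 uncoupling-protein-like members Slc25a14, Slc25a27 and Slc25a30, 0 passed, with log2 differences from -0.61 to 0.17. Slc25a46, which acts at the outer membrane, had one of 0.29 ± 0.19 (edgeR, adjusted p = 0.292). The remaining uncalled members were Slc25a34 at 0.73 ± 0.28 (edgeR, adjusted p = 0.0902), Slc25a35 at -0.48 ± 0.59 and Slc25a40 at -0.34 ± 0.29.

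Set beside p62F/F on library totals, the members called in the second comparison took different places, without a test. Of all 40 members, 14 had every Tsc1Δhep library above every p62F/F library and 8 had every one below, where 32.5% and 14.3% of 13231 genes did. For Tsc1/p62Δhep 17 members lay above p62F/F and 6 below, against 17.1% and 30.3% of those genes. The lower and higher members were picked by these same Tsc1Δhep and Tsc1/p62Δhep libraries, so their places beside p62F/F follow in part from that choice. The shares among all genes called lower or higher are not given here. Tsc1Δhep lay above p62F/F for all 4 lower members and for 10 of the 23 uncalled ones. Tsc1/p62Δhep overlapped p62F/F for 3 of the 4 lower members and lay below it for 1, Slc25a24. Of the 13 higher members, 7 had Tsc1Δhep below p62F/F and 6 overlapped, while Tsc1/p62Δhep lay above p62F/F for 8 and overlapped for 5, and of the 23 uncalled members 9 had it above. Slc25a22, Slc25a25, Slc25a15 and Slc25a48 were low in Tsc1Δhep with Tsc1/p62Δhep overlapping p62F/F. Slc25a1, Slc25a13, Slc25a16, Slc25a37 and Slc25a47 overlapped p62F/F in Tsc1Δhep and stood above it in Tsc1/p62Δhep.

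The Tsc1Δhep libraries differed in their carriers and in markers of other cells. For 14 of the 17 called members Tsc1Δhep library 1 was the farthest from the Tsc1/p62Δhep mean, and library 3 was the nearest for 12. The cholangiocyte markers summed to 5236, 2229 and 754 CPM in Tsc1Δhep libraries 1 to 3 and 83.8 to 132 CPM in Tsc1/p62Δhep, nearly all of it Spp1, which other cells also make. Krt19, a defining keratin of bile duct cells, was at 13.5, 1.19 and 2.95 CPM against 0.847 to 0.917 CPM. Of the 5 cholangiocyte markers tested 2 were lower and 0 higher in Tsc1/p62Δhep, and of the 6 hepatocyte markers 3 were higher and 0 lower. Of all genes tested in this comparison 9.25% were higher and 14.9% lower. Hepatocyte markers summed to 26564, 56403 and 25718 CPM in Tsc1Δhep and 71489 to 99298 CPM in Tsc1/p62Δhep. Macrophage markers summed to 241, 341 and 214 CPM against 75.7 to 89.2 CPM, with 3 of 6 lower and 0 higher. Of the 6, 4 had a negative and 2 a positive log2 difference, from -2.99 to 2.68. Lyz2 was at 185, 241 and 70.2 CPM against 20.1 to 21.9 CPM. Marco was at 0.0866, 1.22 and 0.703 CPM against 1.56 to 6.00 CPM. Clec4f, at 0.0433, 20.4 and 40.8 CPM against 22.5 to 31.6 CPM, overlapped. Proliferation genes summed to 43.8, 64.1 and 37.8 CPM against 3.21 to 9.73 CPM, with 4 of 5 lower. Of the hepatocyte, cholangiocyte, macrophage and proliferation sums, the cholangiocyte one alone placed library 1 farthest from Tsc1/p62Δhep and library 3 nearest. That order was set by Spp1, at 5180, 2210 and 723 CPM in Tsc1Δhep libraries 1 to 3. Krt19, Krt7, Epcam, Sox9 and Cftr each had library 2 nearest to Tsc1/p62Δhep. Stellate markers summed to 40.3, 194 and 204 CPM against 84.2 to 112 CPM, with 3 of 7 lower (Col1a1, Col3a1 and Acta2) and 0 higher. Of the 7, 3 had a positive log2 difference, and 2 of these, Lrat and Reln, were higher without overlap though not called. Lrat was at 0.0866, 2.36 and 7.36 CPM against 11.8 to 17.6 CPM. Reln was at 0.303, 6.82 and 30.5 CPM against 41.5 to 60.6 CPM. Endothelial markers summed to 34.8, 84.2 and 171 CPM against 110 to 144 CPM, with 1 of 6 lower (Pecam1) and 0 higher. Of the 6, 3 had a positive log2 difference. Among these, Stab2 was at 10.6, 18.8 and 63.9 CPM against 70.0 to 72.7 CPM, without overlap. In the endothelial sum library 1 was also farthest, and whether library 2 or 3 was nearest depended on a linear or log scale. The part of these sums in the carrier results was not tested.

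Partner genes of the carriers were read in the same comparison, in which 9.25% of all genes were higher and 14.9% lower. In either direction 24.2% of all genes passed. The share was 83.3% for the urea cycle list below, 25% for the malate-aspartate and citrate shuttles and 22.2% for haem and iron-sulphur genes. Of the 6 urea cycle enzyme genes, which work with Slc25a13 and Slc25a15, 5 were higher and 0 lower in Tsc1/p62Δhep. Of the 5, Ass1 was near the floor, at 0.325 to 0.346 CPM in Tsc1Δhep and 0.778 to 1.98 CPM in Tsc1/p62Δhep. Cps1 is also counted among the hepatocyte markers above. Cps1, the entry enzyme of the cycle, had a log2 difference of 2.12 ± 0.35 and Otc, which makes citrulline, one of 0.83 ± 0.21 (edgeR, adjusted p = 0.00606 and 0.0264). Of the 8 enzyme genes of the malate-aspartate and citrate shuttles 1 was higher (the aspartate aminotransferase gene Got1, log2 1.57 ± 0.35; edgeR, adjusted p = 0.0182) and 1 lower. Of the 9 haem and iron-sulphur genes 2 were higher. They were Cpox of haem synthesis (log2 2.58 ± 0.40) and the transporter gene Abcb10 (log2 1.19 ± 0.19; edgeR, adjusted p = 0.00516 and 0.00563). Of 5 carnitine shuttle genes 0 passed by edgeR, with log2 differences from 0.39 to 0.89.

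The TIM22 route, by which carriers enter the inner membrane, had 0 of 12 genes higher and 1 lower (8.33% called, against 24.2% of all genes). The lower gene was Tomm22, a receptor of the outer membrane, with a log2 difference of -1.30 ± 0.32 (edgeR, adjusted p = 0.0258), and the list's median was -0.70. Of 12 carriers and channels outside the symbol rule, such as the pyruvate carrier genes Mpc1 and Mpc2 and the sideroflexin genes, edgeR called 0 and DESeq2 called 2 lower. Of 15 genes for mitochondrial mass, 1 was higher, Sdha of the respiratory chain (log2 1.76 ± 0.37; edgeR, adjusted p = 0.0139), and the list's median was -0.19. In the first comparison 0 genes of any of these lists passed by edgeR.

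The difference of the p62 effect between the Tsc1 backgrounds was tested as an interaction over all 12 libraries. Of the 40 carriers 8 had a more positive p62 effect where Tsc1 was deleted and 3 a more negative one, 27.5% in all. Over 13231 genes the shares were 6.76% and 9.32%, and 16.1% in either direction. The interaction was 3.83 ± 0.33 on the log2 scale for Slc25a21, -5.46 ± 0.47 for Slc25a4, 1.31 ± 0.23 for Slc25a16 and 3.20 ± 0.72 for Slc25a25 (edgeR, adjusted p = 0.000132, 0.000132, 0.00399 and 0.0129). These 4 genes were called in each of 20 alternative fits. The other members called were Slc25a48, Slc25a47, Slc25a37, Slc25a13 and Slc25a1 upward and Slc25a24 and Slc25a33 downward. For Slc25a15, Slc25a17, Slc25a22, Slc25a23, Slc25a29 and Slc25a42, called in the second comparison, the interaction did not pass (edgeR, adjusted p from 0.0697 to 0.139). Without p62F/F library 1 the interaction of Slc25a25 was 2.27, and without Tsc1Δhep library 1 that of Slc25a24 was -2.09. Without the latter library that of Slc25a33 was -1.93 (edgeR, adjusted p = 0.0566). With 1 of the 12 libraries left out at a time, Slc25a48 was called in 11 fits, Slc25a24 in 10, Slc25a47 in 9, Slc25a33 and Slc25a37 in 3 each, Slc25a13 in 2 and Slc25a1 in 1. On library totals 4 members were called in each direction, and the share of all genes called in that fit is not given here. The lack of Cre in p62F/F enters this contrast too.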

How the data were processed

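The authors deposited counts per gene symbol in 2 tables of 6 liver libraries, read as unnormalized since the values were whole and library totals differed. Per the labels' protocols, a directional kit was used on poly(A)-selected RNA, read single-end at 75 bases or paired-end. No aligner, counter or strand setting was named, being not given in the sources used here. Although the symbols are of mouse, hg19 is the build in the submitters' processing notes. Samples were grouped by their titles. The members and gene lists were chosen with earlier results of these data known.

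Genes were filtered with filterByExpr and scaled by TMM in edgeR 4.0.16 (R 4.3.3), and the quasi-likelihood test was adjusted by Benjamini-Hochberg over all genes tested. The fit used 1 table for each comparison and all 12 libraries for the interaction. Intervals are 95% and rest on the quasi-likelihood F statistic. Alternatives were DESeq2 1.42.0, RLE factors, library totals, no filter, limma 3.58.1 on log2(CPM + 1), a replicate block, all 12 libraries in 1 fit, each library left out, and Tsc1Δhep library 3 left out together with Tsc1/p62Δhep library 1. A limma fit with the trend on GC content and length removed was added after seeing the data. On simulated counts for p62Δhep against p62F/F (12458 genes) 60% of 2-fold and 96% of 4-fold changes were recovered, and for Tsc1/p62Δhep against Tsc1Δhep (12481 genes) 14% and 84%.

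Transcript lengths and positions came from GENCODE M21 (GRCm38) and promoter windows from RefSeq, matched by symbol. Library values are given for members called in any comparison, for 17 liver carriers chosen by name, and for the 3 members of smallest p in the first comparison and the interaction. Values of 1 carrier gene and 1 shuttle gene are not reported here, though counts include them.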

Additional observations from a re-analysis of the deposited data

Results flagged for a closer look

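The p62 effect differed between the Tsc1 backgrounds, by the interaction test over 12 libraries, for 11 carrier genes. On the log2 scale the difference was 3.83 for Slc25a21, 3.20 for Slc25a25, 2.45 for Slc25a48, 1.31 for Slc25a16, 1.25 for Slc25a47, 1.22 for Slc25a37, 0.88 for Slc25a13 and 0.87 for Slc25a1. It was -5.46 for Slc25a4, -3.37 for Slc25a24 and -2.82 for Slc25a33. None of the 11 passed the threshold of edgeR's test in the comparison of p62Δhep with p62F/F, and all of them passed it in that of Tsc1/p62Δhep with Tsc1Δhep. The calls of 4 of them (Slc25a21, Slc25a4, Slc25a16 and Slc25a25) were made in each of 20 alternative fits. With 1 library left out, Slc25a1 was called in 1 of 12 fits, Slc25a13 in 2, and Slc25a37 and Slc25a33 in 3 each.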

How the results depend on the processing

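In the comparison of p62Δhep with p62F/F, 0 members were called under every alternative. In that of Tsc1/p62Δhep with Tsc1Δhep, leaving out 1 library gave 4 to 16 members higher and 1 to 5 lower, library totals gave 5 higher, and in the interaction leaving out 1 library gave 3 to 12 upward and 1 to 4 downward, library totals 4 upward and the GC and length trend 13 upward. The replicate block gave 6 higher and 2 lower in the former and 3 and 1 in the latter, and it reversed Slc25a25 in p62Δhep against p62F/F to 0.028. Same-numbered libraries correlated at -0.42, -0.53 and 0.03 in p62Δhep and p62F/F and at -0.08, -0.08 and -0.13 in the other pair, so the numbers were not taken as pairs. Slc25a25 in p62Δhep against p62F/F was 0.039 by limma and 0.017 with the GC and length trend removed, and -0.69 to 0.65 without 1 library. The leave-one-out ranges were -0.18 to 0.060 for Slc25a13, -0.020 to 0.18 for Slc25a1 and -0.067 to 0.50 for Slc25a33 there, and -0.031 to 0.10 for Slc25a39, -0.0029 to 0.30 for Slc25a38 and -0.095 to 0.28 for Slc25a20 in Tsc1/p62Δhep against Tsc1Δhep. In the latter comparison library totals turned uncalled members to -0.18 (Slc25a5), -0.14 (Slc25a11), -0.21 (Slc25a20), -0.20 (Slc25a28), -0.21 (Slc25a38), -0.34 (Slc25a39) and -0.18 (Slc25a44). Slc25a38 was -0.044 without Tsc1Δhep library 3 and Tsc1/p62Δhep library 1, and Slc25a3 was 0.071 with the GC and length trend removed. The cause of these moves was not tested, and the counts of members are given here without those of all genes. At a mean of 50 counts 36 members are kept, and 45 have at least 1 count.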
